A study of Mus musculus with 4 samples.

Results

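Genes of the cell cycle and of DNA replication were followed in macrophages grown from the bone marrow of mice lacking Hem1 and of wild-type (WT) mice. The 42 genes were named for their roles. Of these, 39 matched a probe set annotated to a single gene symbol, out of 19505 genes measured in all, while Mcm7, Ccnb1 and Ccnd1 were not analysed here. The 39 comprised 11 genes of DNA replication, 17 of G2 and mitosis, 8 G1 cyclins, cyclin-dependent kinases (CDKs) and E2f1, and 3 CDK inhibitors. The Hem1 KO group and the WT group each held 2 arrays, each from a different mouse per the series' design text. Hem1, encoded by Nckap1l, is the blood-cell subunit of the WAVE complex, which drives branched actin assembly. Every culture was kept for 8 days in RPMI with 10% fetal calf serum and 20% L929-conditioned medium, which supplies CSF1, the growth factor that turns marrow cells into macrophages. The sources used here do not give the age, sex and strain of the mice or the deleted part of Nckap1l. Cultures differentiated from whole marrow can hold cells other than macrophages.

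A cell enters the cycle when D-type cyclins with CDK4 or CDK6, and then E-type cyclins with CDK2, inactivate the retinoblastoma proteins and free E2F factors. These switch on genes for origin licensing, DNA synthesis and nucleotide supply. Genes for chromosome condensation, the spindle and its checkpoint follow later, under the DREAM and MuvB complexes with B-MYB and FOXM1, and their transcripts peak in G2 and mitosis. CSF1 drives both the survival and the division of macrophage precursors in marrow cultures, and dividing cells become fewer as macrophages mature.

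All values are log2 expression, so that a difference of 1 is a doubling. Background was set on each array at the 95th percentile of 1448 odour, pheromone and taste receptor genes and lay at 6.04 and 5.38 on the Hem1 KO arrays and at 5.88 and 5.51 on the WT arrays (replicates 1 and 2). Nckap1l read 10.04 and 9.62 on the Hem1 KO arrays and 11.37 and 11.11 on the WT arrays. All 8 measured macrophage markers of 10 lay above background on every array, among them the CSF1 receptor gene Csf1r. Their differences, Hem1 KO minus WT, were all below 0 with a median of -0.34, and 5 of 8 were lower without overlap, a pattern met by 13.3% of all genes, but limma called 0 (1 lower at an unadjusted p under 0.05). Markers of marrow stroma differed between the genotypes: 6 of 9 measured of 10 listed were called higher in Hem1 KO cultures by limma, against 1.48% of all genes. They were Pdgfrb (log2 difference 2.36), Cxcl12 (2.06), Col1a1 (1.97), Col1a2 (1.94), Acta2 (1.75) and Col3a1 (1.57). The calls of Col1a2, Acta2 and Col3a1 were lost without WT replicate 2, and those of Col1a2 and Col3a1 also when only genes above background on at least 2 arrays were tested. The median level of these 9 genes was 9.43 and 8.88 on the Hem1 KO arrays and 7.26 and 6.92 on the WT arrays, and the log2 of their summed linear levels was 13.65 and 13.25 in Hem1 KO and 11.90 and 11.62 in WT cultures. Of the 9, 1 lay at or below background on all arrays. Among 8 progenitor markers 4 lay at or below background on all arrays, Mpo among them, while Kit read 7.15 and 6.20 in Hem1 KO and 6.95 and 6.04 in WT cultures. Of the other marker lists limma called 1 gene in each of a pair: the basophil protease gene Mcpt8 was higher (4.24, adjusted p = 8.39e-05) and the neutrophil collagenase gene Mmp8 lower (-2.21, adjusted p = 0.00561). The rest of the basophil and mast cell list did not follow Mcpt8. Of its 8 markers 6 lay at or below background on all arrays, with a median difference of -0.01 and 5 below 0. Of 7 measured neutrophil markers 6, Mmp8 among them, lay below 0 and 1 above, with a median of -0.25. Of these 7, 3 lay at or below background on all arrays, and 2 were lower without overlap, against 13.3% of all genes. Hem1 KO replicate 1 had a narrower spread over all genes (SD 2.00) than the other arrays (2.15 each).

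Of the 39 cell cycle genes, limma called 1, the cyclin D2 gene Ccnd2, higher in Hem1 KO macrophages and 0 lower at a Benjamini-Hochberg adjusted p under 0.05. Over all genes the fit called 1.48% higher and 0.133% lower, so the count among the 39 lay near that background. At an unadjusted p under 0.05, 1 was higher and 1 lower, against 3.63% and 1.57% of all genes. The arrays of the genotypes did not overlap for 5 genes with both Hem1 KO arrays above and 3 with both below, and these patterns were met by 12.5% and 13.3% of all genes. The median difference, Hem1 KO minus WT, was 0.09 over the 39 genes and 0.01 over all genes. The mean over the Hem1 KO arrays hides a wide gap between them, which is described first.

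**Figure D1:**
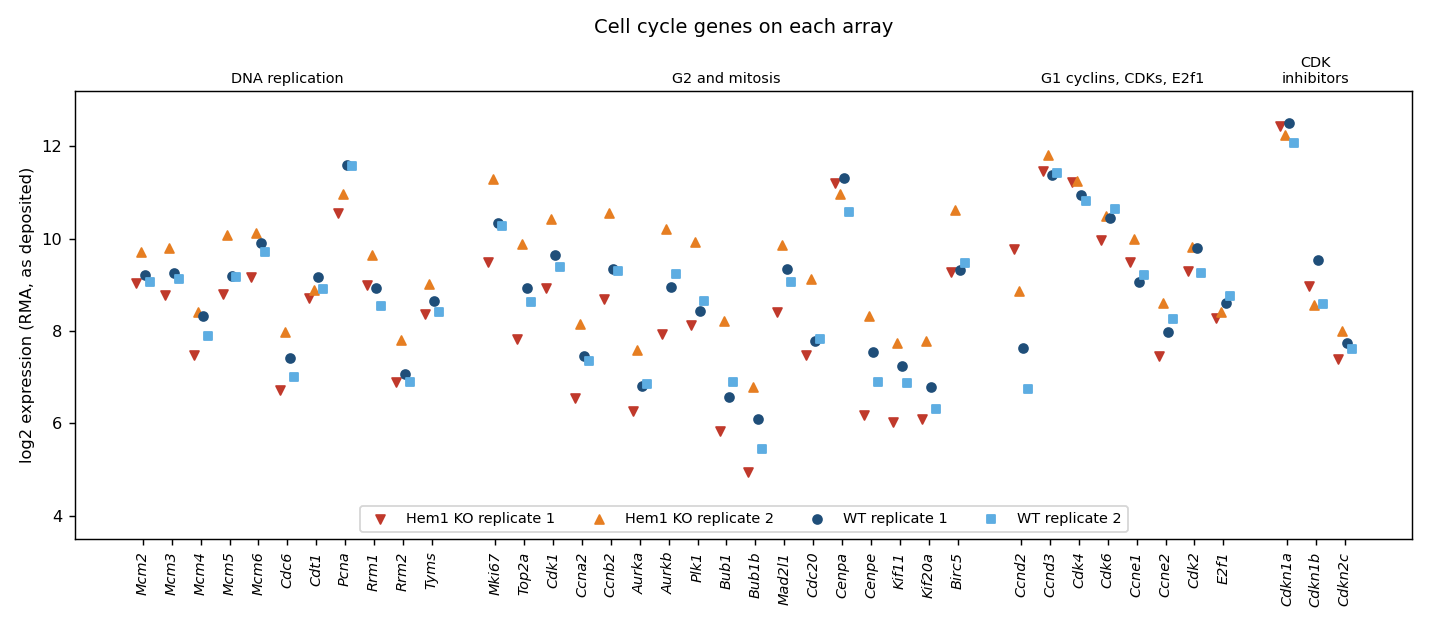
Log2 expression (RMA, y axis) of each of the 39 measured cell cycle genes (x axis, grouped by role) on the 2 Hem1 KO arrays (triangles, down for replicate 1 and up for replicate 2) and the 2 WT arrays (circle and square). For 16 of 17 genes of G2 and mitosis, Hem1 KO replicate 1 is the lowest and Hem1 KO replicate 2 the highest of the 4 arrays. The WT arrays lie between them, and values below background are plotted as deposited.

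Genes of G2 and mitosis separated the Hem1 KO cultures from each other. Top2a, which encodes the topoisomerase that untangles sister chromatids, read 7.83 and 9.89 on Hem1 KO replicates 1 and 2 and 8.94 and 8.62 on the WT arrays. Mki67, the gene of the proliferation antigen Ki-67, read 9.49 and 11.29 in Hem1 KO and 10.33 and 10.28 in WT cultures. The mitotic kinase gene Cdk1 read 8.94 and 10.43 in Hem1 KO and 9.65 and 9.39 in WT cultures. In all 3, the WT arrays lay close together and between the Hem1 KO arrays.

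The cyclins that activate CDK1 followed the same order. Ccnb2 (cyclin B2) read 8.69 and 10.56 in Hem1 KO and 9.35 and 9.30 in WT cultures. Ccna2 (cyclin A2), which also acts in S phase, read 6.55 and 8.15 in Hem1 KO and 7.45 and 7.36 in WT cultures. For both, the WT arrays differed by 0.09 or less on the log2 scale, while the gap between the Hem1 KO arrays was 1.87 for Ccnb2 and 1.60 for Ccna2.

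Among the mitotic kinases, Aurkb, the enzymatic subunit of the chromosomal passenger complex, read 7.93 and 10.21 in Hem1 KO and 8.96 and 9.23 in WT cultures. Plk1, which acts in spindle assembly and mitotic exit, read 8.14 and 9.93 in Hem1 KO and 8.44 and 8.65 in WT cultures. Aurka, a kinase of the spindle poles, read 6.26 and 7.58 in Hem1 KO and 6.81 and 6.85 in WT cultures. In these 3 kinase genes too, the WT arrays lay between the Hem1 KO arrays. Birc5, which encodes the passenger subunit survivin, read 9.27 and 10.61 in Hem1 KO and 9.33 and 9.47 in WT cultures, so that replicate 1 lay just below the WT arrays and replicate 2 well above them.

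The spindle checkpoint genes did the same. Bub1, a checkpoint kinase, read 5.84 and 8.22 in Hem1 KO and 6.57 and 6.90 in WT cultures. On Hem1 KO replicate 1 it was below background, so that its gap between the Hem1 KO arrays, 2.39 in the deposited values, is at least 2.18. Aurkb had the widest gap among the members above background on all arrays, 2.28. Bub1b (BUBR1) read 4.95 and 6.79 in Hem1 KO and 6.10 and 5.45 in WT cultures and lay above background on 1 array of each genotype. For both genes the WT arrays fell between the Hem1 KO arrays in the deposited values. For Bub1b, however, Hem1 KO replicate 1 and WT replicate 2 were below background. Mad2l1 read 8.41 and 9.86 in Hem1 KO and 9.35 and 9.07 in WT cultures. Cdc20, the activator of the anaphase-promoting complex that these proteins restrain, read 7.48 and 9.13 in Hem1 KO and 7.79 and 7.83 in WT cultures.

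The motor protein genes also took this order. The kinetochore motor gene Cenpe read 6.18 and 8.33 in Hem1 KO and 7.55 and 6.91 in WT cultures. Kif11, a motor that pushes spindle poles apart, read 6.04 and 7.74 in Hem1 KO and 7.24 and 6.87 in WT cultures, below background on Hem1 KO replicate 1. Kif20a, a motor of cytokinesis, read 6.09 and 7.78 in Hem1 KO and 6.80 and 6.30 in WT cultures. Cenpa, the centromeric histone gene, was the exception among the 17, with 11.20 and 10.96 in Hem1 KO and 11.32 and 10.58 in WT cultures, the highest value on WT replicate 1.

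The order in which Hem1 KO replicate 1 was the lowest and replicate 2 the highest of the 4 arrays was thus found in 16 of 17 genes of G2 and mitosis, against 2.16% of all genes. With each array centred on its median it was found in 16 of 17, against 10.95% of all genes, and after quantile normalization in 15 of 17, against 9.01%. These counts of the order include values below background. For Bub1b, Hem1 KO replicate 1 and WT replicate 2 were below background, so which of these arrays is lower is not settled. Replicate 2 exceeded replicate 1 by more than 1, a doubling, in 16 of 17 as well, against 0.718% of all genes and 1.07% of those as bright as the dimmest of the 39 or brighter. The median gap between the Hem1 KO arrays, replicate 2 minus replicate 1, was 1.70 for the 17 genes and -0.38 for all genes. Between the WT arrays it was -0.09 for the 17 genes and -0.28 for all genes, and 0 of the 17 differed by more than 1 there. When all 19505 genes were ranked by the gap between the Hem1 KO arrays, 16 of the 17 stood among the 100 with the largest gap, which hold 0.513% of all genes. Of the 17, Bub1, Bub1b and Kif11 were below background on Hem1 KO replicate 1. With values below background set to the background of their array, 15 of 17 had a gap above 1, against 0.631% of all genes, and 15 stood among the 100 largest. Since this gap lies between single mice of the same genotype, it has no replicate and no test.

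**Figure D2:**
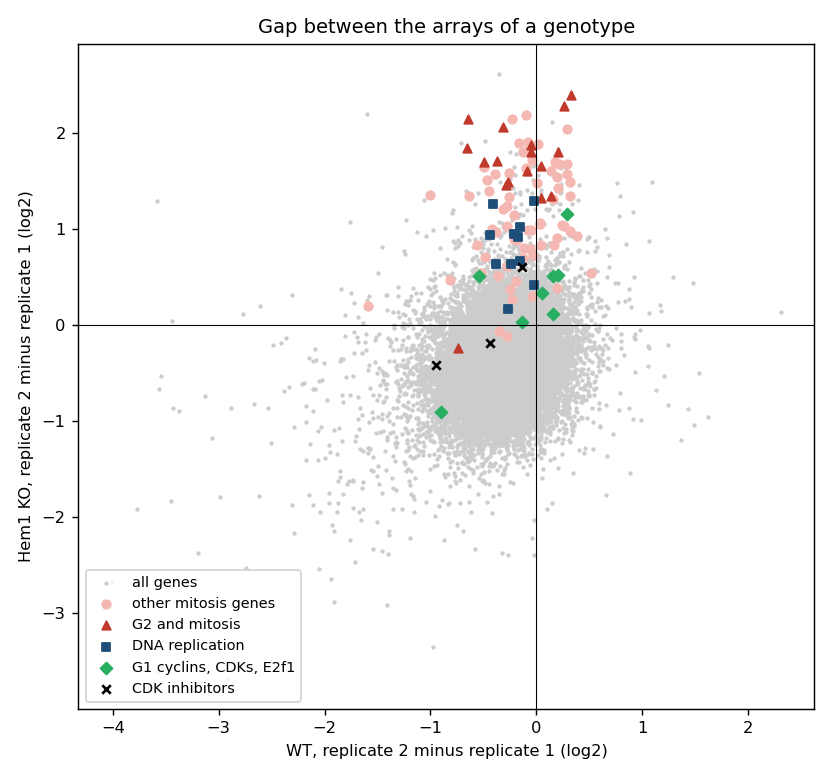
Gap between replicate 2 and replicate 1 (log2) of the Hem1 KO arrays (y axis) and of the WT arrays (x axis) for all 19505 genes (grey) and the cell cycle lists (coloured). Of the 17 genes of G2 and mitosis, 16 lie near the upper edge of the cloud, beside genes on none of the cell cycle lists. The 17 have a median of 1.70 for Hem1 KO and -0.09 for WT, and DNA replication genes have medians of 0.91 and -0.21.

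The gap was as large with the levels or the spread of the arrays made alike. Hem1 KO replicate 2 had the lower median over all genes of the pair (6.49, against 6.95 for replicate 1), and with each array centred on its median the gap of the 17 genes was 2.17. After quantile normalization, which gives all arrays the same spread, it was 2.05, with 15 of the 17 among the 100 largest gaps and 16 of 17 above 1, against 1.6% of all genes. These alternatives for the gap, and the background floor, were chosen after the data were examined. The stromal markers had a median gap of -0.52 and the macrophage markers of -0.14, and 0 of 9 and 0 of 8 of them exceeded 1. Progenitor markers had a median gap of -0.49, and 1 of 8 exceeded 1. That gene, Cd34, named after its values were seen, read 6.28 and 7.30 in Hem1 KO and 6.14 and 5.39 in WT cultures. Its difference of 1.03 was not called (limma adjusted p = 0.587), and WT replicate 2 lay below background. In bulk RNA, fewer dividing cells and less of the mitosis transcripts in each cell cannot be told apart.

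Mitosis genes outside the 17 showed the gap too. Of 67 measured genes of the kinetochore, spindle, condensin and cytokinesis machinery, 45 had Hem1 KO replicate 1 lowest and replicate 2 highest, and 37 had a gap above 1, with a median gap of 1.04. On Hem1 KO replicate 1, 22 of the 67 were below background, and the count of 45 includes such values. With values below background set to it, 30 of 67 had a gap above 1. After quantile normalization 54 of 67 did. Among them, Kif2c, a motor that takes microtubules apart, read 5.94 and 8.13 in Hem1 KO and 7.10 and 7.004 in WT cultures, and Aspm, a spindle pole gene, read 5.76 and 7.90 in Hem1 KO and 7.05 and 6.82 in WT cultures (both chosen after their values were seen and both below background on Hem1 KO replicate 1). Together, the 17 and the 67 made up 45 of the 100 genes with the largest gap, or 53.6% of the measured mitosis genes. The largest gap of all, 2.61, was that of Ch25h, a gene on none of the lists.

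Promoters of mitosis genes carry known sequence elements: the cell cycle genes homology region (CHR), bound by MuvB complexes, and the CCAAT box, bound by NF-Y. E2F sites mark many replication genes. RefSeq windows of 300 bases (GRCm38.p6, 250 before to 50 after the transcript start) were found for 14 of the 17 mitosis genes and searched on both strands for the CHR as TTTGAA, the CCAAT box as CCAAT and the E2F site as any of TTTCCCGC, TTTCGCGC, TTTGCCGC and TTTGGCGC. None of these words contains another. The CHR word was in 10 of 14 windows of mitosis genes (71.4%), against 17.9% of all 32851 promoter windows. The CCAAT box was in 12 of the 14, against 37.4% of all windows, and the E2F words in 1, against 2.26%. In the 10 replication genes with a window the order of the CHR and E2F words was turned, with the CHR word in 1 and an E2F word in 5. The CCAAT box was in 7 of these 10 windows. It was in 15 of 30 windows of the other replication genes and in 46 of 65 of the other mitosis genes. Of 65 windows of the other mitosis genes, 41 held the CHR word (63.1%) and 8 an E2F word.

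The windows below show these elements in members with a wide gap between the Hem1 KO arrays. They were taken from members above background on all arrays. Top2a, Ccnb2 and Mki67 are the 3 widest whose single window holds both the CHR and the CCAAT word, and Cenpe has the widest gap without the CHR word. Mcm5 and Cdc6 have the widest gaps among replication genes. Capitals mark the CHR, CCAAT and E2F words on either strand, and each sequence runs 5′ to 3′ along the gene's own strand.
Top2a (chr11:99024140-99024439, minus strand): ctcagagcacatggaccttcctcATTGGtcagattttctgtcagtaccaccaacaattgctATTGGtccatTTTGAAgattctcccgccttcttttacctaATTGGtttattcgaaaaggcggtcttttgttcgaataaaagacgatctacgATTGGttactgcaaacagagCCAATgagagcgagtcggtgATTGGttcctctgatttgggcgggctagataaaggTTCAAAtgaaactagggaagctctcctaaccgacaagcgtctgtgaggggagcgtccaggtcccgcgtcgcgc
Ccnb2 (chr9:70421505-70421804, minus strand): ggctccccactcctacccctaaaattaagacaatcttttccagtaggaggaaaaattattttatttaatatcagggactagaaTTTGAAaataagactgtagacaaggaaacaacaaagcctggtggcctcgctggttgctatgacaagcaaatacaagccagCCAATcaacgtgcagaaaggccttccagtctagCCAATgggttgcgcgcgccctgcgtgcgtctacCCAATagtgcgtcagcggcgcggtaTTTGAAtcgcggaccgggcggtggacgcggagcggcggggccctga
Mki67 (chr7:135716330-135716629, minus strand): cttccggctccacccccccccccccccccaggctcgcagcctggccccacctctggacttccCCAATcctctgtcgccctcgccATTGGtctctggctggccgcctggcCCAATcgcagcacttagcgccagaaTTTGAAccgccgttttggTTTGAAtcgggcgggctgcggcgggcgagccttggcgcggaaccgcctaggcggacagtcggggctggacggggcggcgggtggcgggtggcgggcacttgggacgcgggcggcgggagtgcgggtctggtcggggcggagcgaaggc
Cenpe (chr3:135212313-135212612, plus strand): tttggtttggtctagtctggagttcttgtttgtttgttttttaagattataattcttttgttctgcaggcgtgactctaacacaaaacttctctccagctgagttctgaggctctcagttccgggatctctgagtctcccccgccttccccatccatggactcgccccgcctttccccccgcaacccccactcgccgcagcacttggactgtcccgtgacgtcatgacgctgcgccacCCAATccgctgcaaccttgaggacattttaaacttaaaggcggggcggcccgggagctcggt
Mcm5 (chr8:75109259-75109558, plus strand): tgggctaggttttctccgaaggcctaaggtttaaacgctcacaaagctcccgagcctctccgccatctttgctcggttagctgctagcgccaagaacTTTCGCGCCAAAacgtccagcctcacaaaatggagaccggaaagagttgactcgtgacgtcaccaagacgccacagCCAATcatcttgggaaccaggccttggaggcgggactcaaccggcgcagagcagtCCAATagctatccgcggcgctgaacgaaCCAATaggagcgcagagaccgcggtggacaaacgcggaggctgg
Cdc6 (chr11:98907901-98908200, plus strand): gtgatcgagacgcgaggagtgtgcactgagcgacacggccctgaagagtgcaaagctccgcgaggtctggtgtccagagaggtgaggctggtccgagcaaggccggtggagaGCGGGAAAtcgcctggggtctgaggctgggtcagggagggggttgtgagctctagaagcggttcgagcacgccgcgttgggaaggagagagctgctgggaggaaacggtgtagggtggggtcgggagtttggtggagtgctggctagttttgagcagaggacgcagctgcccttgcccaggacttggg
In Top2a the CHR words begin 179 and 23 bases before the start, and 6 CCAAT words lie around them. In Ccnb2 a CHR word begins 167 bases before the start. Nearer to it, 3 CCAAT words stand at 87, 54 and 21 bases before the start, followed by another CHR word at base 5 of the transcript. In Mki67 the CHR words begin 116 and 98 bases before the start, with 3 CCAAT words further from it. Cenpe holds 1 CCAAT word, 12 bases before the start. In Mcm5 the 2 E2F words overlap each other and are capitalised as a single run. Cdc6 holds 1 E2F word, 138 bases before the start, and no CHR or CCAAT word. The 10 mitosis genes with the CHR word had a median gap between the Hem1 KO arrays of 1.75 and the 4 without it of 1.80, so that the gap was present with and without the word. Over all 15691 measured genes with a window, 3.42% of those with both CHR and CCAAT words in a window had a gap above 1, against 0.53% of those without both. The median gaps of these classes were alike, -0.36 and -0.37. The listed mitosis genes were not taken out of the classes, so the shares are not independent of the gaps given above.

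DNA replication genes showed the same order of arrays with a smaller gap. The MCM helicase subunit gene Mcm5 read 8.80 and 10.09 in Hem1 KO and 9.20 and 9.18 in WT cultures. Cdc6, which loads the helicase at origins, read 6.72 and 7.97 in Hem1 KO and 7.41 and 7.01 in WT cultures. Rrm2, the regulated subunit of ribonucleotide reductase, read 6.90 and 7.82 in Hem1 KO and 7.08 and 6.91 in WT cultures. Hem1 KO replicate 1 was again the lowest and replicate 2 the highest array in each.

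The other helicase subunits lay close to this order. Mcm2 read 9.04 and 9.71 in Hem1 KO and 9.22 and 9.07 in WT cultures, Mcm3 8.78 and 9.79 in Hem1 KO and 9.27 and 9.12 in WT cultures, and Mcm6 9.18 and 10.12 in Hem1 KO and 9.91 and 9.71 in WT cultures. Mcm4 read 7.47 and 8.41 in Hem1 KO and 8.32 and 7.89 in WT cultures. Tyms, which makes the thymidine nucleotide, read 8.38 and 9.01 in Hem1 KO and 8.65 and 8.42 in WT cultures. All 5 had replicate 1 of Hem1 KO below and replicate 2 above both WT arrays.

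Over the 11 replication genes this order was met by 8, and the gap between the Hem1 KO arrays exceeded 1 in 3. Their median gap was 0.91, against 1.70 for mitosis genes and -0.38 for all genes, and between the WT arrays it was -0.21. The widest replication gap, 1.29 for Mcm5, was smaller than that of each mitosis gene other than Cenpa in the deposited values. With values below background set to it, the gap of Bub1b was 0.74 and so also smaller than that of Mcm5. Of 33 measured other replication genes of 35 listed, 16 took the order and 5 had a gap above 1, with a median gap of 0.58. On Hem1 KO replicate 1, 5 of the 33 were below background, and the count of 16 includes such values. After quantile normalization a gap above 1 was found in 6 of 11 replication genes and 14 of the 33 others, against 1.6% of all genes. No test was made of the difference between the lists, which share the same pair of arrays.

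The replication genes that broke the order were Pcna, Cdt1 and Rrm1. Pcna, the sliding clamp of the replication fork, read 10.56 and 10.98 in Hem1 KO and 11.60 and 11.58 in WT cultures, lower on both Hem1 KO arrays. Its difference of -0.82 (SE 0.32, limma unadjusted p = 0.0228) did not pass the threshold over all genes (adjusted p = 0.604). With a prior variance that follows intensity, limma gave an adjusted p of 0.000199, a setting that called 205 genes lower in all against 26. In that fit the variance came wholly from the trend, and the spread of Pcna between its own arrays had no weight. Cdt1, the licensing factor that works with Cdc6, read 8.72 and 8.89 in Hem1 KO and 9.17 and 8.90 in WT cultures, just without overlap. Rrm1, the large subunit of ribonucleotide reductase, read 9.01 and 9.64 in Hem1 KO and 8.94 and 8.55 in WT cultures, higher on both Hem1 KO arrays but not called (0.58, SE 0.34, limma adjusted p = 1).

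As means of the genotypes, neither replication nor mitosis genes passed the test. Limma called 0 of 11 replication genes (1 lower at an unadjusted p under 0.05) and 0 of 17 mitosis genes (0 at an unadjusted p under 0.05). Median differences were 0.13 and 0.09, against 0.01 for all genes. Of the 17 mitosis genes 13 lay above 0, a larger share than the 51.8% of all genes. The 95% intervals of the mitosis genes reached above 1 for 12 of the 17 and below -1 for 5, so that a doubling lay inside most of them. Single arrays set the sign: without Hem1 KO replicate 1 the mitosis median was 1.10, and without Hem1 KO replicate 2 it was -0.80. The replication median was 0.56 without Hem1 KO replicate 1 and -0.39 without replicate 2.

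**Figure D3:**
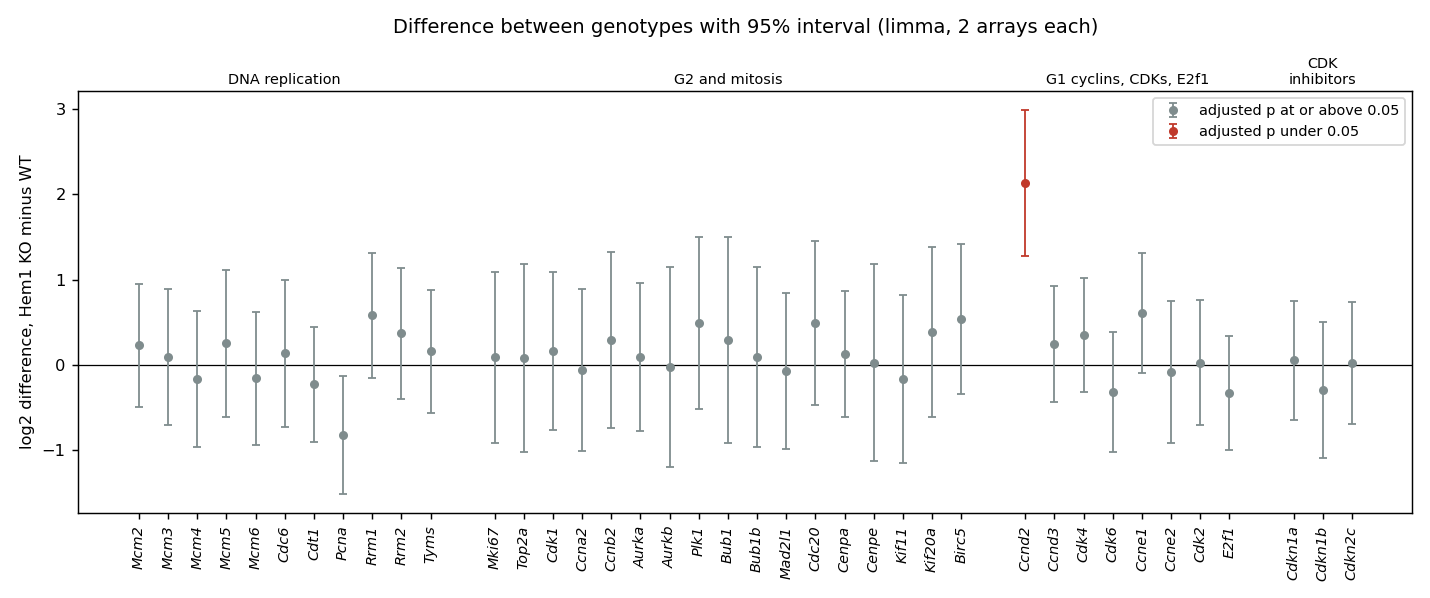
Log2 difference, Hem1 KO minus WT (y axis), with its 95% interval from limma for each of the 39 measured genes (x axis, grouped by role), 2 arrays per genotype. Ccnd2 at 2.13 (red) is the only gene at an adjusted p under 0.05, and the intervals of the 17 genes of G2 and mitosis all include 0.

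The other genes of the machinery gave like results in the test of genotype. Of the 33 other replication genes limma called 0. Their median was 0.04, and 0 had an unadjusted p under 0.05. Those with the smallest p were the DNA polymerase epsilon subunit Pole2 (-0.61), the clamp loader subunit Rfc4 (0.41), the dUTPase Dut (0.46) and the chromatin assembly factor Chaf1a (0.39). Of the 67 other mitosis genes limma called 0. Their median was 0.23, and 51 lay above 0, against 51.8% of all genes. An unadjusted p under 0.05 was reached by 2, both higher, against 3.63% of all genes, so this count lay near that background. Cdc25c, the phosphatase that activates CDK1, read 5.71 and 6.63 in Hem1 KO and 5.001 and 5.38 in WT cultures, below background on both WT arrays and on Hem1 KO replicate 1 (0.98, SE 0.37, adjusted p = 0.536). Gtse1 (0.84), the CDK subunit Cks1b (0.72) and the checkpoint kinase Ttk (0.79) came next, none of them called. Ttk too was below background on both WT arrays and on Hem1 KO replicate 1. The median of the 67 was 0.81 with Hem1 KO replicate 1 left out and -0.38 with replicate 2 left out.

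Ccnd2 rose in Hem1 KO macrophages. Cyclin D2 is a G1 cyclin that growth factors induce and that pairs with CDK4 and CDK6. It read 9.77 and 8.87 on the Hem1 KO arrays and 7.64 and 6.74 on the WT arrays, 4.38-fold higher with no overlap (log2 difference 2.13, SE 0.40, n = 2 each, limma adjusted p = 0.0121). Replicate 2 minus replicate 1 was -0.91 in Hem1 KO and -0.90 in WT cultures, the reverse of the mitosis genes in Hem1 KO cultures. It no longer passed with WT replicate 2 left out (1.68, adjusted p = 0.0607) or when only genes above background on at least 2 arrays were tested (2.13, adjusted p = 0.0838). With an array left out, 1 genotype has a lone array and all genes share a single variance, which gives the spread of Ccnd2 itself no weight. Stromal markers were higher beside Ccnd2, with a median difference of 1.94, and their part in the result was not tested.

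The remaining G1 genes did not pass the test. Ccnd3 (cyclin D3) read 11.48 and 11.81 in Hem1 KO and 11.37 and 11.43 in WT cultures, and Cdk4 read 11.23 and 11.25 in Hem1 KO and 10.95 and 10.82 in WT cultures. Both were higher on each Hem1 KO array, by 0.24 and 0.36 in the mean. Ccne1 (cyclin E1), which drives entry into S phase, read 9.49 and 9.99 in Hem1 KO and 9.06 and 9.21 in WT cultures (0.60, SE 0.33, limma adjusted p = 1), also without overlap. Its partner gene Ccne2 read 7.46 and 8.61 in Hem1 KO and 7.97 and 8.27 in WT cultures, with the order of arrays seen in mitosis genes.

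Cdk6 read 9.97 and 10.49 in Hem1 KO and 10.44 and 10.65 in WT cultures, and Cdk2 read 9.30 and 9.81 in Hem1 KO and 9.80 and 9.26 in WT cultures, so both overlapped. E2f1, the transcription factor that switches on S phase genes, read 8.29 and 8.41 in Hem1 KO and 8.60 and 8.76 in WT cultures, lower on both Hem1 KO arrays and not called (-0.33, SE 0.31). Of the 8 measured G1 genes limma thus called 1 higher and 0 lower, against 1.48% and 0.133% of all genes. Among the 8, 4 lay above and 1 below without overlap, against 12.5% and 13.3% of all genes. Their median difference was 0.13, and their median gap between the Hem1 KO arrays was 0.42. Without Hem1 KO replicate 1 their median difference was 0.39, and without replicate 2 it was -0.075.

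The CDK inhibitors among the members did not differ beyond the spread between arrays. Cdkn1a (p21), the best known p53 target of the cell cycle, read 12.43 and 12.24 in Hem1 KO and 12.50 and 12.07 in WT cultures (0.05, 95% interval -0.64 to 0.75). Cdkn1b (p27), which restrains CDK2 in resting cells, read 8.98 and 8.56 in Hem1 KO and 9.53 and 8.59 in WT cultures (-0.29, 95% interval -1.09 to 0.50). Cdkn2c (p18), an inhibitor of CDK4 and CDK6, read 7.39 and 7.99 in Hem1 KO and 7.73 and 7.60 in WT cultures (0.02, 95% interval -0.69 to 0.74). Limma called 0 of the 3, the unadjusted p of each was above 0.05, and for each the arrays of the genotypes overlapped.

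Outside the members, the CDK inhibitor gene Cdkn2a was higher. It encodes both p16, an inhibitor of CDK4 and CDK6, and ARF, a stabiliser of p53, and the sources used here do not say which of these transcripts the probe set reads. It read 7.81 and 8.03 in Hem1 KO and 4.97 and 5.36 in WT cultures, at least 4.68-fold higher, since both WT arrays lay below background (fitted log2 difference 2.76, SE 0.32, limma adjusted p = 0.000923). The bound is the mean of the Hem1 KO arrays over the mean WT background. Cdkn2a was the only call among 27 other cell cycle regulators, whose median difference was -0.02, while 1.48% of all genes were called higher. Its neighbour in function Cdkn2b (p15) read 7.34 and 6.56 in Hem1 KO and 6.53 and 5.83 in WT cultures (0.77, SE 0.37, not called), the growth factor-induced Myc differed by 0.53 and the CDK-activating kinase Cdk7 by 0.36, neither called. The stromal markers rose beside Cdkn2a, with a median of 1.94, and their part was not tested.

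Of 20 measured p53 targets of 22 listed limma called 1 higher and 0 lower, against 1.48% and 0.133% of all genes. Without overlap, 6 lay above and 2 below, against 12.5% and 13.3% of all genes, and the median difference of the 20 was 0.17. The death receptor gene Tnfrsf10b read 9.22 and 8.39 in Hem1 KO and 7.24 and 6.90 in WT cultures, 3.33-fold higher (1.73, SE 0.35, adjusted p = 0.0227). It no longer passed with Hem1 KO replicate 1 (1.32) or WT replicate 2 (1.57) left out. In those fits 1 genotype has a lone array, and all genes share a single variance. Tnfrsf10b also did not pass when only genes above background on at least 2 arrays were tested (adjusted p = 0.0852). Eda2r (1.62, adjusted p = 0.0508), Phlda3 (1.03) and the kinase Plk3 (0.98) had the next smallest p and were not called. Eda2r passed with the arrays centred (adjusted p = 0.0223) and with an intensity trend (adjusted p = 0.0164), as did Phlda3 with the trend (adjusted p = 0.00435). The trend fit gives the spread of the gene itself no weight. Stromal markers rose beside Tnfrsf10b by a median of 1.94, and their part was not tested.

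**Figure D4:**
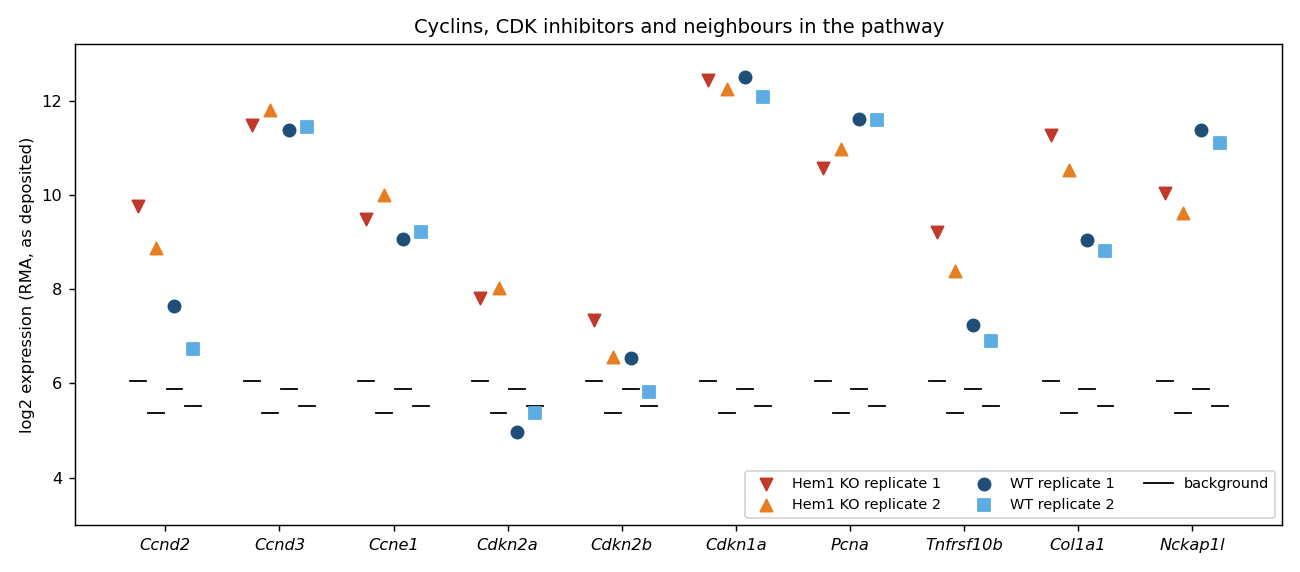
Log2 expression (RMA, y axis) of G1 cyclins, CDK inhibitors and other named genes (x axis) on the 2 Hem1 KO arrays (triangles) and the 2 WT arrays (circle and square), with each array's background as a black bar. Ccnd2 and Cdkn2a are higher on both Hem1 KO arrays, Cdkn2a lies below background on both WT arrays, and Cdkn1a overlaps between the genotypes.

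**Figure D5:**
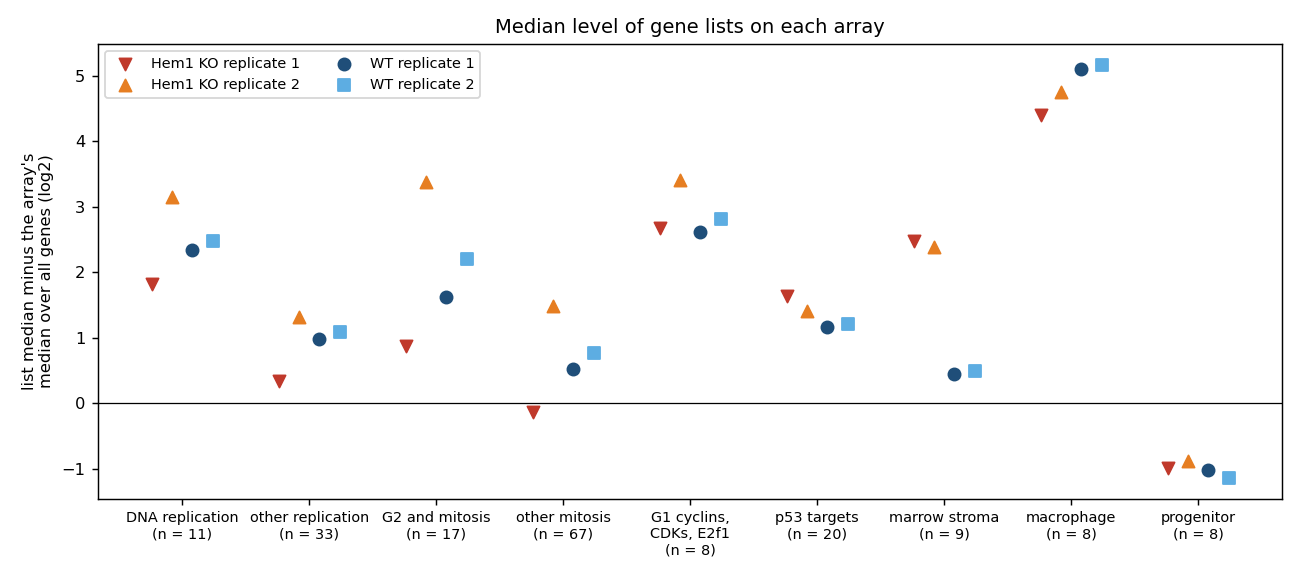
Median level of each gene list (x axis, with the number of genes measured) minus the array's median over all genes (y axis, log2) on the 2 Hem1 KO and the 2 WT arrays, to be read within a list and not between lists. G2 and mitosis genes lie at 0.88 on Hem1 KO replicate 1 and 3.38 on Hem1 KO replicate 2, against 1.62 and 2.21 on the WT arrays, while stromal markers are higher on both Hem1 KO arrays.

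Set against each array's median over all genes, the lists kept these relations. DNA replication genes stood at 1.82 and 3.15 on the Hem1 KO arrays and 2.35 and 2.48 on the WT arrays, and G2 and mitosis genes at 0.88 and 3.38 on the Hem1 KO arrays and 1.62 and 2.21 on the WT arrays. The stromal markers stood at 2.47 and 2.39 on the Hem1 KO arrays and 0.45 and 0.50 on the WT arrays. Gene by gene, their centred gap between the Hem1 KO arrays ran from -1.38 to 0.43. Their part in the gap of the mitosis genes was not tested. Progenitor markers stood at -0.99 and -0.88 on the Hem1 KO arrays and -1.02 and -1.14 on the WT arrays.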

How the data were processed

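RNA of 4 macrophage cultures was hybridised to 1 Affymetrix array each, labelled from 2 to 10 ng of total RNA per the labels' protocols. The authors deposited log2 values made with RMA, per the submitters' processing notes, without a version, settings or build; the log2 scale was read from the values. Of 29129 rows, 19572 name 1 gene in the platform annotation, 0 several and 9557 none. The brightest probe set per gene by mean over the 4 arrays was kept, which left 19505 genes. Array medians differ, so a quantile step over these arrays was not visible.

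Genotype was the only term of a linear model per gene (limma 3.58.1 under R 4.3.3, eBayes without a trend, two-sided, Benjamini-Hochberg adjustment over all genes, 11.2 prior degrees of freedom). The fit was tested on simulated arrays with independent noise and variances drawn from its own fitted prior. Such arrays cannot show how the fit deals with genes that shift together on an array. An exact permutation test of 2 against 2 arrays cannot give a p under 0.333. The number of arrays limits the precision.

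The genes and lists were chosen with earlier results of these data known. All 42 genes are accounted for. Of other lists, called genes up to 6 and otherwise the 4 with the smallest p are named, and of marker lists called genes and a few defining genes. Older symbols were matched through the RefSeq gene table (GRCm38.p6), and promoter windows are RefSeq's. Alternatives left out each array, blocked on replicate number, centred or quantile normalized the arrays, averaged probe sets, removed dim genes, or let the prior follow intensity. The 9557 unnamed rows were not used.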

Additional observations from a re-analysis of the deposited data

How the results depend on the processing

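Of 390 fits of single members under the alternatives, 5 lay on the other side of the threshold from the fit of all arrays, for Ccnd2, Plk1, Bub1 and Pcna, and 55 had the other sign without a call in either fit. Plk1 (1.38, adjusted p = 0.0353) and Bub1 (1.49, adjusted p = 0.0163), and outside the members Cdc25c (1.44, adjusted p = 0.0225) and Ttk (1.52, adjusted p = 0.0117), were called without Hem1 KO replicate 1. Eda2r was called without Hem1 KO replicate 2 (2.14, adjusted p = 1.11e-05) or WT replicate 2 (1.80, adjusted p = 0.0296). Those fits give all genes a single variance, so that the spread of each gene has no weight, and carry no replicate of the lone array. Leaving out an array gave 0 to 3 members called higher and 0 lower, medians of -0.39 to 0.56 for replication, -0.80 to 1.10 for mitosis, -0.075 to 0.39 for G1 genes, -0.21 to 0.24 for other replication genes and -0.38 to 0.81 for other mitosis genes. The count was 0 higher among genes above background on at least 2 arrays (13065 tested), and 1 lower, Pcna, with an intensity trend. Centring moved the median of all genes by -0.10. The gap between the Hem1 KO arrays in mitosis genes, 1.70 as deposited, was 2.17 after centring and 2.05 after quantile normalization, and 1.69 with values below background set to it. With replicate number as a block, 1 member was called higher and 0 lower, and 620 genes were called higher and 199 lower over all genes (288 and 26 without the block). Among named genes outside the members the block also brought calls of Eda2r (adjusted p = 0.00177), Phlda3 (0.0125), Plk3 (0.0128) and Cdc25c (0.0187). The numbers are not stated to mark shared batches, and the replicate gaps of the genotypes correlated at r = 0.24 across genes. Depth cannot be given for arrays, and at 2 arrays per genotype the intervals of the members span a median of 0.83 to each side.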
